A study of Mus musculus with 12 samples.

Results

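Transcripts of 10 genes of the Hippo pathway and its effectors were followed through RNA of Schwann cells sorted from mouse sciatic nerves. They were the coactivator genes Yap1 and Wwtr1 (which encodes Taz), the transcription factor genes Tead1, Tead2, Tead3 and Tead4, the kinase genes Lats1 and Lats2, and the regulators Nf2 and Amotl2. The genes were chosen by symbol. All 10 are among the 25700 genes in the count table, and all 10 passed the filter on low counts, which left 18597 genes for testing. Nerves were taken at postnatal day P5 from C57bl/6J mice of genotype P0Cre-/+ : ReYFP Tg/+ : βAct-DsRed Tg/+, which the mice of all groups share. Cre is active in the Schwann cell lineage and so switches on eYFP there, whereas the chicken beta actin promoter drives dsRed in all cells. After enzymatic dissociation at 37 °C, eYFP-positive cells were sorted through 3 gates, with 4 libraries per gate that carry the mouse numbers 1 to 4. The allSC gate took all eYFP-positive cells, the mSC gate those of high side scatter (granularity, assumed to enrich myelinating cells) and the nmSC gate those of low side scatter (assumed to enrich cells that were not myelinating). The gates are thus enrichments and not pure cell types, and the allSC gate holds cells of both scatter clouds.

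In the Hippo pathway, kinases of the Mst family, with their scaffold Sav1, activate the kinases Lats1 and Lats2, which phosphorylate Yap and Taz and so keep them out of the nucleus. When this phosphorylation is low, Yap and Taz enter the nucleus and bind Tead proteins, which hold the complex on DNA. In the Schwann cell lineage, Yap and Taz are known to be needed for the sorting of axons and for myelination, and loss of Nf2, whose product Merlin acts upstream of the Lats kinases, gives rise to schwannomas. Much of this regulation acts on proteins, by phosphorylation and location, which RNA counts do not measure.

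Tead proteins bind a core motif that is commonly written GGAATG, or CATTCC on the other strand. RefSeq promoter windows of build GRCm38.p6, from 250 bases before to 50 bases after the annotated start, were found for 8 of the 10 genes, and the one nearest to the start of the gene was used. Tead1 and Tead4 were not matched. The promoters printed here are those of the coactivator pair and of the Tead genes that differed between gates, read 5′ to 3′ on the strand of the gene, with the core motif in capitals.

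Yap1: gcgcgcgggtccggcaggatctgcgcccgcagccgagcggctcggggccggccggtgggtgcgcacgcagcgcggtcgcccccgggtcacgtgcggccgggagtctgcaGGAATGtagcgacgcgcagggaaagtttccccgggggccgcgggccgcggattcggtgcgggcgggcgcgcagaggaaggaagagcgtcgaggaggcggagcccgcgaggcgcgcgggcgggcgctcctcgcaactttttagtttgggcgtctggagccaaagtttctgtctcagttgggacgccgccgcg
Wwtr1: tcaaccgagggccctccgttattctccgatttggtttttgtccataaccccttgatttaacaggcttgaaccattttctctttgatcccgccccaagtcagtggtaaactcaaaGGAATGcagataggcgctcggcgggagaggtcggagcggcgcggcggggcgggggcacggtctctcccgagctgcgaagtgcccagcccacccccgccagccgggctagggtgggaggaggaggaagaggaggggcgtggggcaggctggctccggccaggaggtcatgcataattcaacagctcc
Tead2: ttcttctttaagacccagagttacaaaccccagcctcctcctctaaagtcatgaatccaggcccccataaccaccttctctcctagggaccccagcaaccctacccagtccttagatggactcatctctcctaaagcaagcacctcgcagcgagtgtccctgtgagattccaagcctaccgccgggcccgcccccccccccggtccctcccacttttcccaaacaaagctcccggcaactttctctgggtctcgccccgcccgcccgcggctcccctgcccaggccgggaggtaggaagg
Tead3: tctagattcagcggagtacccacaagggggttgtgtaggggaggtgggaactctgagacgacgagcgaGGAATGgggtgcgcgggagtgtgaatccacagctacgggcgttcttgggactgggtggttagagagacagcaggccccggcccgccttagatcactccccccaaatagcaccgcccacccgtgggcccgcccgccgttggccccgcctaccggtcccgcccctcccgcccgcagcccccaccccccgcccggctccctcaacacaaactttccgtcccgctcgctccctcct

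The Yap1 window is chr9:8004547-8004846 (minus strand), with GGAATG starting 141 bases before the start of the transcript. That of Wwtr1 is chr3:57575861-57576160 (minus strand), with GGAATG 136 bases before the start, and that of Tead3 is chr17:28350756-28351055 (minus strand), with GGAATG 182 bases before it. The Tead2 window, chr7:45215542-45215841 (plus strand), holds neither form of the motif. Counting both strands, the motif was in the windows of 5 of 8 of these genes (Yap1, Wwtr1, Tead3, Lats2 and Amotl2) and in 14.7% of the 32851 RefSeq mouse promoter windows of the same length. These matches describe letters in a window, and binding was not measured.

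The authors counted reads per gene and deposited the counts without normalization, and library totals ran from 8180927 to 16918122. Levels are given here as CPM, counts relative to the total of the library, scaled by the TMM method, which sets the libraries to a common level over most genes. Differences are log2 fold changes with their standard error (SE) from the quasi-likelihood test of edgeR, fitted to all 12 libraries at once. A gene is called when its p, adjusted by the Benjamini-Hochberg method over all tested genes, is under 0.05. The TMM factors went with the gate, from 0.744 to 0.871 in mSC, 0.986 to 1.03 in allSC and 1.16 to 1.27 in nmSC, and the 50 genes with the most counts took 17.9% to 31.6% of a library. A count of 3 corresponded to 0.198 to 0.374 CPM, and the lowest count of any of the 10 genes in a library was 51. Sox10, which marks the Schwann cell lineage, had mean levels of 267 CPM in mSC, 267 CPM in allSC and 266 CPM in nmSC. In mSC against nmSC, 10 of 10 proliferation genes were called lower, beside 20.1% of all tested genes. Summed, the proliferation genes stood at 107 to 187 CPM in the mSC libraries and 1279 to 1723 CPM in the nmSC libraries.

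In mSC against nmSC, 4 of the 10 genes differed. Tead4 and Tead3 were higher in mSC, and Tead2 and Wwtr1 were higher in nmSC, whereas no call was made for Yap1, Tead1, Lats1, Lats2, Nf2 or Amotl2. Among all tested genes 40.5% were called in this comparison (20.4% higher and 20.1% lower in mSC), so that 4 of 10 is close to the share of genes in general. With libraries scaled by their totals alone, Yap1 (-0.54), Tead1 (-0.37), Lats1 (-0.53), Lats2 (-0.62) and Amotl2 (-0.54) were also called lower in mSC, and Tead3 was not called. Under that scaling, 10392 of the 18597 tested genes were called lower in mSC and 1448 higher. The median over all tested genes was then -0.73, below each of these 5 values. Under TMM scaling the median log2 fold change was -0.16 over all tested genes and 0.02 over the 10 genes. In bulk RNA, fewer cells of a type and less RNA per cell cannot be told apart, and this holds for each difference between gates.

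**Figure D1:**
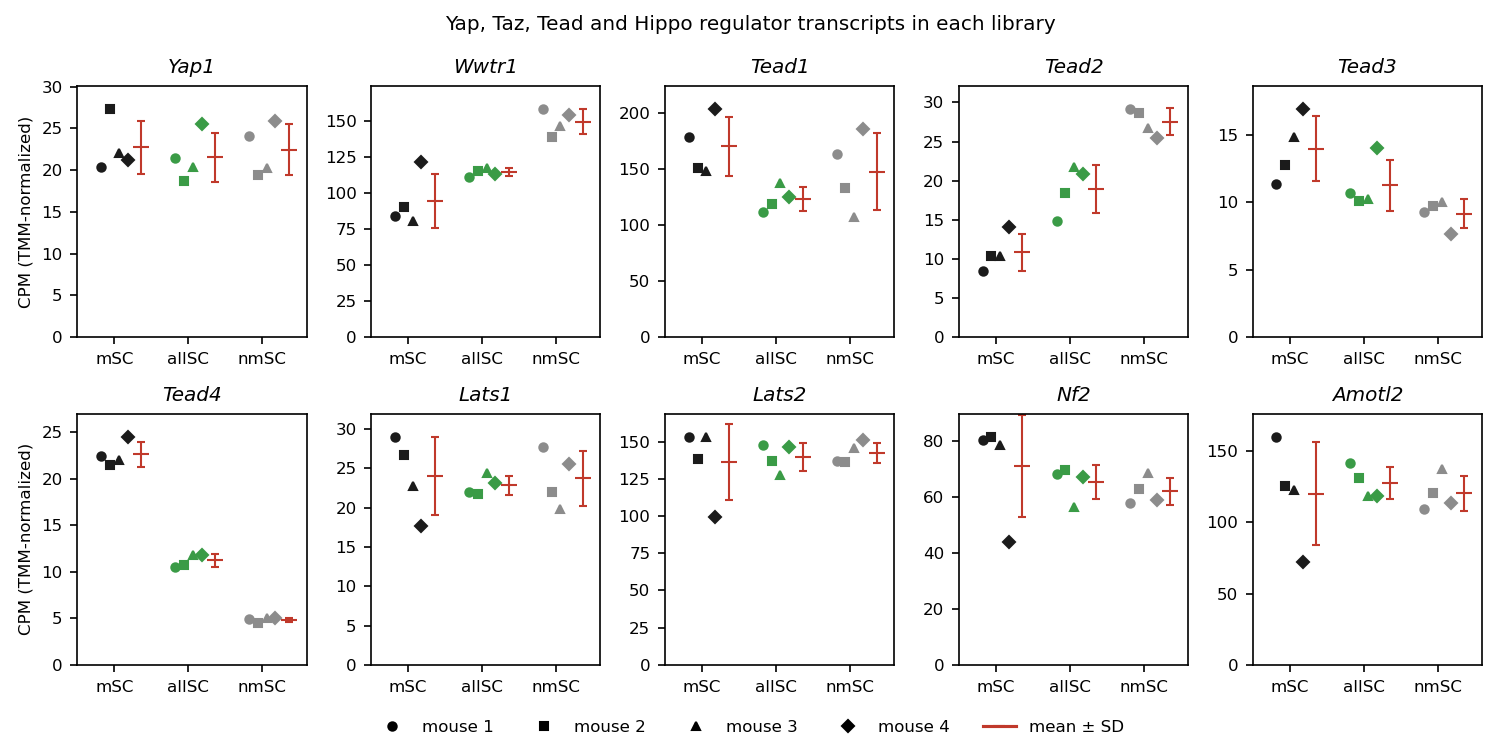
TMM-normalized CPM (vertical axes, linear and starting at 0) of the 10 genes in each library of the mSC, allSC and nmSC gates. Symbols stand for mice 1 to 4, and bars for the mean ± SD of 4 libraries. Tead4 falls from mSC through allSC to nmSC without overlap, Tead2 runs the other way, and mouse 4 of the mSC gate lies apart for Nf2 at 43.8 CPM.

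**Figure D2:**
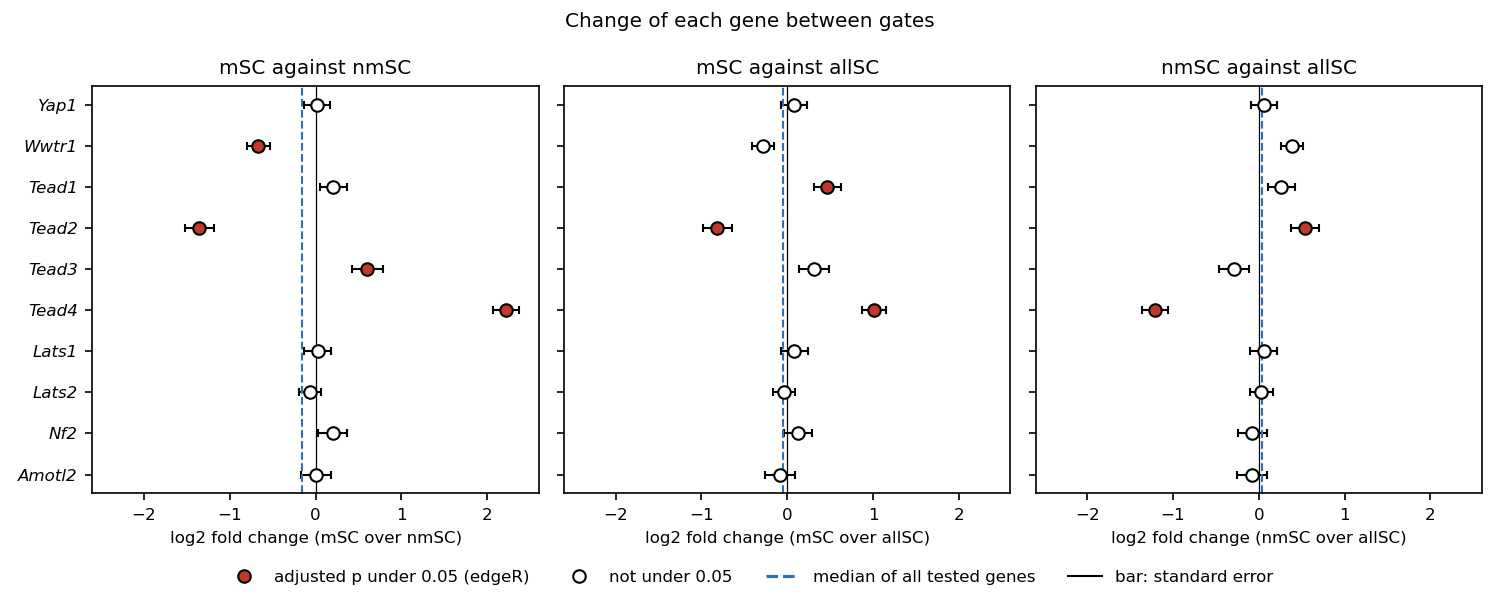
Log2 fold change (horizontal axes) of each gene in the 3 comparisons between gates, with bars for the SE. Filled points have an adjusted p under 0.05, the dashed line is the median of all tested genes, and Tead4 stands farthest from 0 with 2.22 between mSC and nmSC.

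The coactivators came first. Yap1 (chromosome 9, 7931999 to 8004596, minus strand, GRCm38) stood at 20.3, 27.3, 22.1 and 21.2 CPM in the mSC libraries of mice 1 to 4, 21.5, 18.7, 20.4 and 25.5 CPM in allSC, and 24.1, 19.5, 20.3 and 25.9 CPM in nmSC. The gates overlapped throughout. The log2 fold change was 0.02 between mSC and nmSC (SE 0.151, adjusted p = 0.927), 0.08 between mSC and allSC (SE 0.152, adjusted p = 0.739) and 0.06 between nmSC and allSC (SE 0.151, adjusted p = 0.880). Its counts per library, from 170 to 393, are modest, and a p that misses the threshold does not show equal levels.

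Wwtr1 (chromosome 3, 57455649 to 57575910, minus strand) stood at 84.4, 90.6, 81.0 and 122 CPM in the mSC libraries, 111, 116, 118 and 114 CPM in allSC, and 159, 139, 146 and 155 CPM in nmSC. Each nmSC library was above each mSC and each allSC library. Wwtr1 fell by 0.67 on the log2 scale in mSC against nmSC (SE 0.131, adjusted p = 0.000432), a 1.59-fold difference with the lower value in mSC for 4 of 4 mice. The steps to and from the unselected gate did not pass the test, with -0.28 between mSC and allSC (SE 0.130, adjusted p = 0.148) and 0.39 between nmSC and allSC (SE 0.130, adjusted p = 0.0684). The mSC library of mouse 4 was the highest of its gate. Without it the mSC to nmSC difference was -0.80 (adjusted p = 1.16e-06), and both steps were called, at -0.40 (adjusted p = 0.00695) and 0.41 (adjusted p = 0.00340). With library totals as scaling both steps were called too, at -0.60 and 0.64.

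Levels of different genes can be compared only per length, and for this CPM was divided by the length of all exons of a gene in kilobases (RPKM). Within each library the ratio of Wwtr1 to Yap1 does not depend on how libraries are scaled. It was 8.04, 6.42, 7.10 and 11.1 in the mSC libraries, 10.05, 11.96, 11.19 and 8.63 in allSC, and 12.8, 13.9, 14.0 and 11.6 in nmSC. Wwtr1 transcripts thus outnumbered those of Yap1 in every library, and the ratio was higher in nmSC than in mSC for 4 of 4 mice, with no overlap of these gates. Mean ratios were 8.17 ± 2.09 (SD, n = 4) in mSC and 13.0 ± 1.12 (SD, n = 4) in nmSC. The size of the ratio rests on the length used, because the annotated transcripts of Yap1 are on average 2052 bases long, against 9257 bases for its joined exons. With mean transcript lengths the ratios were 1.88, 2.40 and 2.99 in mSC, allSC and nmSC, in the same order. The sum of both coactivators was 22.2 ± 3.88 RPKM in mSC, 26.3 ± 0.537 RPKM in allSC and 33.8 ± 2.12 RPKM in nmSC (SD, n = 4).

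**Figure D3:**
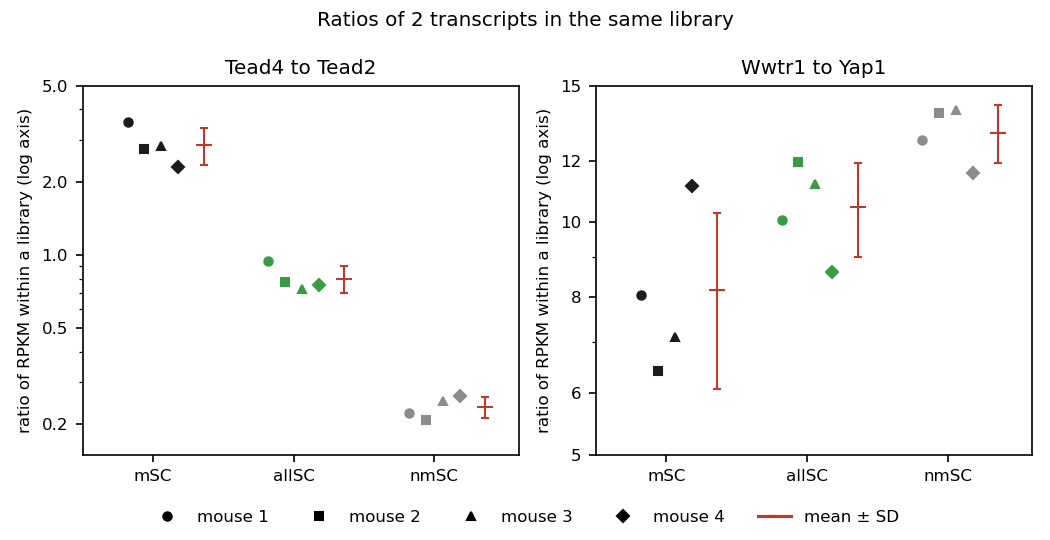
Ratio of the RPKM of Tead4 to that of Tead2 (left) and of Wwtr1 to that of Yap1 (right) within each library, on log axes, with symbols for mice 1 to 4 and bars for the mean ± SD of 4 libraries. The Tead4 to Tead2 ratio spans 2.32 to 3.53 in mSC and 0.209 to 0.261 in nmSC, and the Wwtr1 to Yap1 ratio spans 6.42 to 11.1 in mSC and 11.6 to 14.0 in nmSC.

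The Tead genes encode the DNA-binding partners of both coactivators, and their transcripts differed between gates in opposite directions. Tead4 (chromosome 6, 128224288 to 128300823, minus strand) stood at 22.5, 21.5, 22.0 and 24.6 CPM in the mSC libraries, 10.5, 10.7, 11.8 and 11.9 CPM in allSC, and 4.895, 4.502, 5.002 and 5.005 CPM in nmSC. The 3 gates were separate, with allSC in between. Tead4 rose by 2.22 in mSC against nmSC (SE 0.148, adjusted p = 4.19e-10), which is 4.66-fold, in 4 of 4 mice. It was also called in mSC against allSC at 1.01 (SE 0.138, adjusted p = 3.00e-05) and in nmSC against allSC at -1.21 (SE 0.148, adjusted p = 1.03e-05). Among all tested genes 17.6% were called between mSC and allSC (8.76% higher and 8.8% lower in mSC) and 10.4% between nmSC and allSC (2.82% higher and 7.55% lower in nmSC), while 3 and 2 of the 10 genes were called there.

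Tead2 (chromosome 7, 45215753 to 45233644, plus strand) had the opposite order. It stood at 8.48, 10.4, 10.4 and 14.1 CPM in the mSC libraries, 14.8, 18.5, 21.7 and 20.9 CPM in allSC, and 29.2, 28.7, 26.7 and 25.5 CPM in nmSC. The gates did not overlap here either, although the highest mSC library (mouse 4) lay just under the lowest allSC library (mouse 1). Tead2 fell by 1.35 in mSC against nmSC (SE 0.169, adjusted p = 2.49e-06), a 2.56-fold difference, in 4 of 4 mice. It fell by 0.82 in mSC against allSC (SE 0.169, adjusted p = 0.00207) and rose by 0.54 in nmSC against allSC (SE 0.163, adjusted p = 0.0401). This last call is fragile, since it was kept in 4 of 12 fits that left out 1 library each, and the adjusted p reached 0.163 in these fits. Of its exon bases, 13 are shared with Cd37 on the other strand, which had 0 to 12 counts per library.

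Tead3 (chromosome 17, 28331671 to 28350817, minus strand) differed less. It stood at 11.4, 12.8, 14.9 and 17.0 CPM in the mSC libraries, 10.7, 10.1, 10.2 and 14.1 CPM in allSC, and 9.311, 9.768, 10.003 and 7.639 CPM in nmSC. The mSC libraries were all above those of nmSC, and mSC overlapped allSC. Tead3 rose by 0.60 in mSC against nmSC (SE 0.176, adjusted p = 0.0105), a 1.52-fold difference, in 4 of 4 mice, with no call in the other comparisons. When libraries were scaled by their totals alone, the median of all genes moved to -0.73 and the change of Tead3 to 0.03 (adjusted p = 0.872). Relative to that median, Tead3 was 0.77 higher under TMM and 0.76 higher under library totals.

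Tead1 (chromosome 7, 112679318 to 112906807, plus strand) had the most transcripts of the family per length. It stood at 179, 151, 149 and 204 CPM in the mSC libraries, 112, 119, 137 and 125 CPM in allSC, and 164, 133, 107 and 186 CPM in nmSC. The nmSC libraries spanned the range of allSC and reached into that of mSC, while each mSC library was above each allSC library. The difference between mSC and nmSC was 0.21 (SE 0.157, adjusted p = 0.294), with the higher value in mSC in 4 of 4 mice. Tead1 was called in mSC against allSC at 0.47 (SE 0.157, adjusted p = 0.0470), close to the threshold. With the mouse as a block in the fit this difference was 0.45 (adjusted p = 0.0529), with library totals as scaling 0.15 (adjusted p = 0.469), and 5 of 12 fits that left out 1 library kept the call. Both gates of sorted clouds had higher means than the unselected gate, with 170.5 CPM in mSC, 148 CPM in nmSC and 123 CPM in allSC. The step between nmSC and allSC, at 0.26, was not called (SE 0.157, adjusted p = 0.380), and the source of this order was not tested. Among all tested genes, the allSC mean was under both others for 15.6%.

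The makeup of the Tead transcripts was compared as shares of their summed RPKM within a library. Tead1 held the largest share in every library, with 54.0% ± 2.88 in mSC, 50.9% ± 1.58 in allSC and 55.7% ± 6.52 in nmSC (SD, n = 4). Tead4 was second in mSC at 27.3% ± 1.61 and held 17.5% ± 0.656 in allSC and 7.05% ± 0.967 in nmSC. Tead2 held 9.73% ± 1.36 in mSC, 22.1% ± 1.74 in allSC and 30.1% ± 4.13 in nmSC. Tead4 thus had a larger mean share than Tead2 in mSC and a smaller one in allSC and nmSC. Tead3 stayed at 8.99% ± 1.21, 9.43% ± 1.40 and 7.22% ± 1.64 in mSC, allSC and nmSC, with overlapping ranges. In nmSC the mean share of Tead3 was slightly above that of Tead4, which was the smallest. The size of the shares rests on the length used. With mean transcript lengths the mean Tead4 share was 14.6%, 8.77% and 3.27% in mSC, allSC and nmSC, and that of Tead2 12.1%, 25.7% and 32.5%. For Tead1 it was 66.2%, 58.5% and 59.2%, so that mSC then stood above nmSC.

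The ratio of Tead4 to Tead2 was 3.53, 2.75, 2.82 and 2.32 in the mSC libraries, 0.946, 0.771, 0.727 and 0.755 in allSC, and 0.223, 0.209, 0.249 and 0.261 in nmSC. Tead4 thus exceeded Tead2 in mSC alone. With mean transcript lengths the mean ratio in mSC was 1.23, with 1 library just under 1 at 0.997, and the gates kept their order, with 0.344 in allSC and 0.101 in nmSC. The summed Tead level moved less, with 23.2 ± 2.84 RPKM in mSC, 17.8 ± 1.68 RPKM in allSC and 19.3 ± 2.37 RPKM in nmSC (SD, n = 4), and mSC overlapped nmSC.

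**Figure D4:**
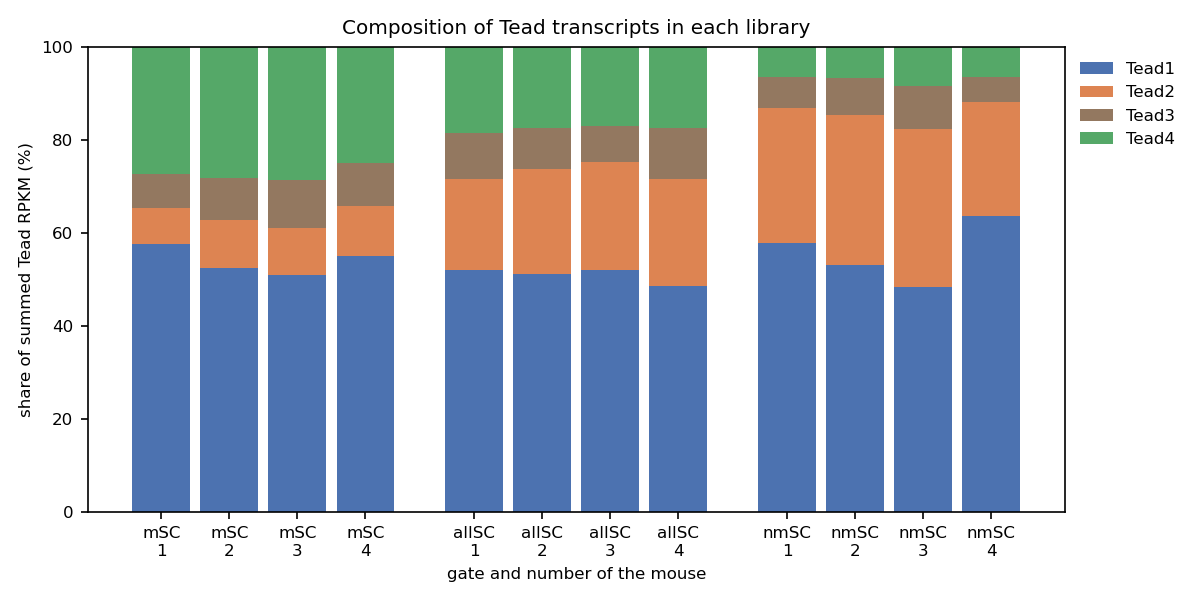
Share of each Tead gene in the summed Tead RPKM (vertical axis, percent, from 0 to 100) in each of the 12 libraries, ordered by gate and mouse number. RPKM uses the length of all exons of a gene, and the size of the shares rests on this choice. The Tead4 share is 25.0% to 28.5% in mSC and 6.46% to 8.49% in nmSC, the Tead2 share is 7.73% to 10.8% in mSC and 24.7% to 34.1% in nmSC, and Tead1 holds the largest share in each library.

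The Lats kinases, which inactivate Yap and Taz, were not called in any comparison under TMM scaling. Lats1 (chromosome 10, 7681214 to 7716460, plus strand) stood at 29.0, 26.7, 22.8 and 17.7 CPM in the mSC libraries, 22.0, 21.7, 24.4 and 23.1 CPM in allSC, and 27.6, 22.0, 19.8 and 25.5 CPM in nmSC. The mSC to nmSC difference was 0.03 (SE 0.158, adjusted p = 0.904). The gates overlapped, and the mSC libraries were the most spread.

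Lats2 (chromosome 14, 57689662 to 57758388, minus strand) stood at 153, 138, 153 and 99.5 CPM in the mSC libraries, 148, 137, 128 and 146 CPM in allSC, and 137, 136, 145 and 151 CPM in nmSC. Apart from mouse 4 of mSC, which was the lowest of all 12, the libraries lay within a narrow range. The mSC to nmSC difference was -0.06 (SE 0.133, adjusted p = 0.717). Of the exon bases of Lats2, 2955 are shared with Gm49361 on the same strand, a gene with 488 to 1373 counts per library, so that the level of Lats2 is uncertain. Per length, Lats2 transcripts were 5.97 ± 0.739 times those of Lats1 in mSC, 6.43 ± 0.660 times in allSC and 6.39 ± 1.03 times in nmSC (SD, n = 4). The size of this ratio rests on the length used. It was 15.8, 17.1 and 16.9 with mean transcript lengths, and 7.92, 8.54 and 8.48 with the longest transcripts.

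Nf2 (chromosome 11, 4765845 to 4849536, minus strand) stood at 80.2, 81.5, 78.5 and 43.8 CPM in the mSC libraries, 68.2, 69.8, 56.2 and 66.9 CPM in allSC, and 57.8, 62.9, 68.4 and 58.8 CPM in nmSC. In mSC, 3 libraries were above every library of the other gates, and mouse 4 was below them all. The mSC to nmSC difference was 0.20 (SE 0.165, adjusted p = 0.340). Without that library it was 0.38 (SE 0.113, adjusted p = 0.0113), and Nf2 became the fifth gene called between mSC and nmSC.

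Amotl2 encodes an angiomotin-like protein that binds Yap, and is itself a target of Yap and Taz (chromosome 9, 102716672 to 102733418, plus strand). It stood at 160.1, 126, 123 and 72.3 CPM in the mSC libraries, 142, 131, 118 and 119 CPM in allSC, and 109.6, 120.3, 138 and 114 CPM in nmSC. Both the highest and the lowest value belonged to mSC, and no comparison was called. The means of mSC and nmSC, 120.2 ± 36.2 CPM and 120.3 ± 12.3 CPM (SD, n = 4), were close together (adjusted p = 1.00), and the difference without mouse 4 of mSC was 0.18 (adjusted p = 0.226).

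The mSC library of mouse 4 stood apart over much of the pathway. It was above the other 3 mSC libraries for Wwtr1 and all 4 Tead genes, below them for Lats1, Lats2, Nf2 and Amotl2, and within them for Yap1. It also had the lowest TMM factor, 0.744, and the largest share of counts in the 50 top genes, 31.6%. The part of these properties in its values was not tested. The calls of Wwtr1, Tead2, Tead3 and Tead4 between mSC and nmSC were made without it too. Without it 5 of the 10 genes were called between mSC and nmSC, 3 between mSC and allSC and 3 between nmSC and allSC. Of the 19369 genes tested in that fit, 3930 were called higher and 3788 lower in mSC against nmSC. The counts were 1966 and 1581 in mSC against allSC, and 968 and 1816 in nmSC against allSC.

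The other genes of the pathway were counted from lists, without the 10 genes themselves. Of the Hippo kinases and scaffolds, 20 were tested between mSC and nmSC, and 4 rose and 3 fell in mSC (35.0%, beside 40.5% of all tested genes). Stk3, which encodes the Mst2 kinase at the head of the cascade, rose by 1.45 (SE 0.118, adjusted p = 7.10e-09), from 35.6 ± 2.33 CPM in nmSC through 67.7 CPM in allSC to 97.4 ± 7.19 CPM in mSC. Its paralog Stk4 (Mst1) stood at 38.4 ± 5.81 CPM and 34.0 ± 4.14 CPM in mSC and nmSC, with no call (adjusted p = 0.320). The Tao kinase gene Taok3 (0.83), Wwc2 (0.73), whose product is a relative of the Lats-activating protein Kibra, and the Lats-related kinase gene Stk38l (0.50) rose as well. With library totals as scaling, Taok3 (0.27, adjusted p = 0.179), Wwc2 (0.16, adjusted p = 0.313) and Stk38l (-0.06, adjusted p = 0.756) were not called. Map4k1 (-1.11), Frmd6 (-0.88) and Map4k3 (-0.43) fell, of which Map4k1 is expressed at low levels, 1.13 ± 0.358 CPM in mSC, and Map4k3 was not called with the size factors of DESeq2 (adjusted p = 0.0642) or in 5 of the fits that left out 1 library (mSC of mouse 1 or 3, nmSC of mouse 1, 2 or 4), where the adjusted p reached 0.112. The adaptor Sav1 and the Lats cofactors Mob1a and Mob1b were not called, with adjusted p of 0.429, 0.889 and 0.597.

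Of 35 tested upstream and junction regulators, 7 rose and 8 fell in mSC (42.9%). The genes that rose were led by Ajuba (1.23, adjusted p = 2.30e-05), whose LIM-domain product restrains Lats kinases, and by the junction scaffold gene Mpp5 (1.17, adjusted p = 2.79e-07). The phosphatase gene Ptpn14 (0.72), Strn3 (0.55), the ubiquitin ligase subunit gene Btrc (0.54) and the polarity gene Scrib (0.35) followed. Under library totals as scaling, Ptpn14, Strn3, Btrc and Scrib stood at 0.16, -0.0066, -0.013 and -0.21 without a call. With the mouse as a block Scrib had an adjusted p of 0.0502, and it was not called without mSC of mouse 2 or 3 or nmSC of mouse 1 or 2, with an adjusted p of up to 0.0898. Falling genes were led by Fjx1 (-3.29, adjusted p = 1.45e-07), a relative of the Golgi kinase Four-jointed, which stood at 1.07 ± 0.500 CPM in mSC and 10.4 ± 2.35 CPM in nmSC. Dlg5 (-1.37), Rassf5 (-1.29) and the large cadherin genes Fat2 (-1.18), Fat4 (-1.12) and Fat3 (-0.89) fell too, whereas Fat1, at 141 ± 45.7 CPM and 132 ± 11.4 CPM, was not called (adjusted p = 0.667). Fat4 was not called without nmSC of mouse 3 (-0.89, adjusted p = 0.0559).

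Tead proteins also bind Vestigial-like proteins, which compete with Yap and Taz. In this list of Tead partners, 5 genes were tested and 1 was called (20%). Vgll3 fell by 1.03 (SE 0.116, adjusted p = 6.20e-07), with 142 ± 15.2 CPM in mSC, 235 CPM in allSC and 290.3 ± 22.0 CPM in nmSC. Vgll4 was at 74.7 ± 23.2 CPM and 63.7 ± 5.82 CPM in mSC and nmSC, without a call (adjusted p = 0.270). Vgll1 and Vgll2 did not pass the filter on low counts.

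A list held genes known as Yap and Taz targets, mostly from epithelial and cancer cells. Without Lats2 and Amotl2, 19 were tested, and 4 rose and 9 fell in mSC (68.4%, beside 40.5% of all tested genes, with no test of the difference). With these genes included, the median log2 fold change was -0.58, beside -0.16 for all tested genes. The largest falls were those of Ccdc80 (-4.09, SE 0.165, adjusted p = 9.42e-13), which encodes an extracellular matrix protein, Axl (-3.51, SE 0.217, adjusted p = 1.59e-10), a receptor tyrosine kinase gene, and Fjx1. Axl stood at 10.7 ± 3.99 CPM in mSC, 75.0 CPM in allSC and 124 ± 20.8 CPM in nmSC. Igfbp3 (-2.51), the tissue factor gene F3 (-2.46) and Rbms3 (-1.09) also fell. F3 was low in mSC, at 0.374 to 1.30 CPM, beside 3.48 to 8.35 CPM in nmSC. Rising genes were Gadd45a (0.76, adjusted p = 0.0253), Ptpn14 (0.72), Arhgef17 (0.72) and Asap1 (0.71), and with library totals as scaling none of these 4 was called, with values of 0.17, 0.16, 0.16 and 0.14. Gadd45a was also not called without mSC of mouse 2 or 4 or nmSC of mouse 3 or 4, with an adjusted p from 0.0546 to 0.0781.

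The targets used most often as a readout were not called between mSC and nmSC under TMM scaling. Ccn1, which encodes the matrix protein Cyr61, had high levels of 938 ± 336 CPM in mSC, 1001 CPM in allSC and 1055 ± 124 CPM in nmSC, and a difference between mSC and nmSC of -0.17 on the log2 scale (SE 0.209, adjusted p = 0.526). Ccn2 was near the limit of detection, at 1.19 ± 1.11 CPM in mSC and 0.542 ± 0.342 CPM in nmSC (adjusted p = 0.131). Ankrd1 was lower still, with 0.324 ± 0.448 CPM and 0.991 ± 0.418 CPM (adjusted p = 0.124), and its difference was -1.88 with an adjusted p of 0.0468 when the mouse was a block, and -2.89 (adjusted p = 0.00979) without mSC of mouse 1. With library totals as scaling, Ccn1 (-0.72, adjusted p = 0.0116) and Ankrd1 (-1.96, adjusted p = 0.0328) were called lower in mSC.

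**Figure D5:**
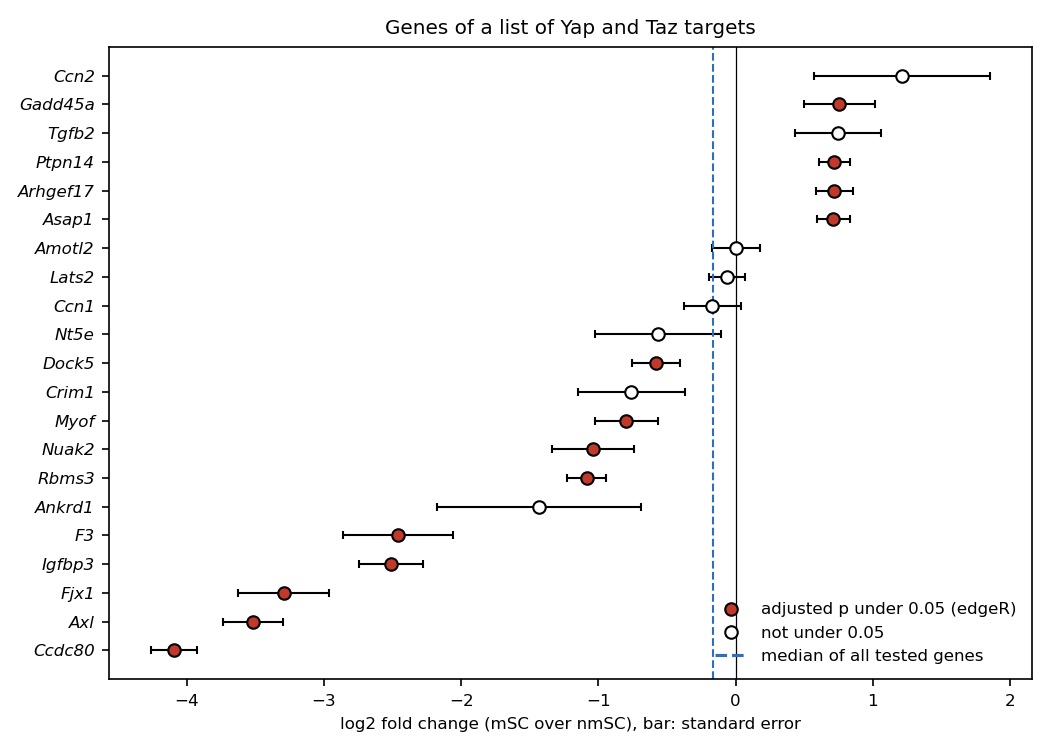
Log2 fold change between mSC and nmSC (horizontal axis) of the 21 tested genes of the target list, with bars for the SE. Filled points have an adjusted p under 0.05, the dashed line marks the median of all tested genes, and the genes run from Ccdc80 at -4.09 to Ccn2 at 1.21.

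Other properties moved with the gates beside these targets. Collagen genes on a list of fibroblast-like markers fell in mSC, with log2 fold changes of -2.12 for Col1a1 and -3.16 for Col3a1, and the summed list was at 888 to 2248 CPM in mSC and 9390 to 14250 CPM in nmSC, with 2 of 6 genes called. That sum came mostly from Col1a1 (786 CPM in mSC and 3420 CPM in nmSC) and Col3a1 (875 and 7850 CPM). The other markers of the list were not called. Its defining marker Pdgfra stood at 2.34 ± 0.861 CPM in mSC and 2.35 ± 0.861 CPM in nmSC. Dcn (0.55, adjusted p = 0.203) and Lum (1.12, adjusted p = 0.139) were higher in mSC, and Cd34 (-0.94, adjusted p = 0.0656) was lower. Of 14 genes that respond to dissociation, 1 rose and 6 fell in mSC (50%, beside 40.5% of all tested genes). Their sums overlapped, at 2820 to 5273 CPM in mSC and 4210 to 5230 CPM in nmSC. The summed endothelial markers were at 20.3 to 29.6 CPM in mSC and 8.17 to 13.3 CPM in nmSC, mostly from Kdr, which rose (1.80), while Pecam1 (-0.95, at 1.25 and 2.45 CPM) and Tek (-1.12) fell. Neuronal markers summed to 21.5 to 27.9 CPM in mSC and 10.5 to 16.1 CPM in nmSC, where Nefl rose from 2.19 to 10.4 CPM, Rbfox3 fell from 1.43 to 0.541 CPM (adjusted p = 0.0497) and Snap25 and Tubb3 were not called. Immune, perineurial and mural marker sums overlapped between these gates, but single markers were called. Of 3 tested perineurial markers Slc2a1 rose (0.62), and Cldn1 (-1.27) and Itgb4 (-0.69) fell. Of 5 mural markers Pdgfrb rose (1.09) and Myh11 fell (-1.09), and of 4 tested immune markers Cd68 fell (-1.34). The part of these properties in the target list was not tested.

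Of the Schwann cell genes linked to Yap, Taz or Tead1, 6 were tested, and 4 rose and 1 fell in mSC. This is 83.3%, beside 40.5% of all tested genes, with no test of the difference. The list was chosen with earlier results of these data known. It holds myelin genes, while the mSC gate was assumed to enrich myelinating cells, so the share says nothing about Yap or Taz. Pmp22, a compact myelin gene, rose by 3.61 (SE 0.141, adjusted p = 6.88e-13) and Egr2, the myelin regulator also called Krox20, by 0.50 (SE 0.136, adjusted p = 0.00668), with 604 ± 116 CPM in mSC and 427 ± 11.5 CPM in nmSC. Dag1, which encodes the laminin receptor dystroglycan, rose by 0.96 (adjusted p = 0.000164), and the integrin gene Itga6 by 0.33 (adjusted p = 0.0317). Under library totals as scaling Egr2 and Itga6 were at -0.06 and -0.23 without a call, and Itga6 was not called without mSC of mouse 1, 2 or 3 or nmSC of mouse 1 or 2, with an adjusted p of up to 0.102. The laminin gene Lama4 fell by 0.96 (adjusted p = 0.000967), and Itgb1 was not called (0.19, adjusted p = 0.275).

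Across the 12 libraries, the genes whose log2(CPM + 1) ran most like that of a coactivator or Tead gene were sought among 9399 genes with a mean of at least 10 CPM. For Wwtr1 these were Exosc8 (Pearson r = 0.983), Sfpq (r = 0.972) and Slf1 (r = 0.969). For Tead2 they were Ppp1r1b (r = 0.991), the centromere protein gene Cenpm (r = 0.985) and the nuclear receptor gene Nr2f2 (r = 0.982). Tead1 ran with Jmy (r = 0.946), Socs4 (r = 0.927) and Brd1 (r = 0.907). For Yap1 the closest were Prkce (r = 0.715), Metap1 (r = 0.702) and Kdm1b (r = 0.702), lower than for the other genes. These values describe libraries that share mice and fall into 3 gates, and the gates alone give high correlations among genes that differ between them.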

How the data were processed

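RNA of sorted Schwann cells was profiled by Smart-Seq2 in 12 libraries, 4 per gate. The method keeps no strand and counts no molecules. The authors trimmed reads, aligned them with STAR 2.6.1c, counted them per gene with featureCounts and deposited raw counts. The labels name mouse build GRCm38.p5, whereas the published methods name a human build, and options for strand, multi-mapping and overlapping genes are not given in the sources used here. GENCODE M21 (GRCm38) gave symbols, positions and lengths for 25664 of 25700 identifiers.

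From the counts, TMM factors, a filter on low counts by gate and the quasi-likelihood test of edgeR 4.0.16 (R 4.3.3) were computed in 1 model over all libraries, and p was adjusted by the Benjamini-Hochberg method, with calls at under 0.05. The SE was taken from the fold change and its F statistic. RPKM used TMM-scaled totals and the union of exons. Intervals, SEs and floors do not cover losses before amplification.

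The 10 genes and the lists were chosen with earlier results of these data known. Besides the 10 genes, up to 6 called genes per list and direction were named by size of change, together with Ccn1, Ccn2, Ankrd1 and Axl, and 3 genes of most similar pattern each for Yap1, Wwtr1, Tead1 and Tead2. Stk4, Sav1, Mob1a, Mob1b, Fat1, Vgll4 and Itgb1 were named after their values were seen.

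Same-numbered libraries carry the same subject number in the labels and were taken as the same mouse. Their deviations correlated weakly, with r from -0.225 to 0.153 between mSC and nmSC. The paper reports equal numbers of samples from female and male mice in each gate. In its plot of sample dissimilarity, samples of the same sex lay in pairs. Labels give no sex, so sex was not used, and its part in the spread within a gate was not tested. Alternatives were DESeq2 1.42.0 (size factors and Wald test), library totals with and without the 50 top genes, other filters, the mouse as a block, models of only the gates compared, other gene lengths and leaving out each library. On simulated counts for mSC and nmSC (17880 genes), edgeR recovered 26.4% of 1.5-fold, 92% of 2-fold and 100% of 4-fold changes, with 5.6% of calls false. The simulation changed far fewer genes than were called in the data, so these shares may differ there.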

Additional observations from a re-analysis of the deposited data

Results flagged for a closer look

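In 165 groups of 4 libraries, 10 values lay far from the other 3 of their gate, by a gap above the 95% critical value of Dixon's test. Chance gives about 1 in 20 groups. Among the 10 genes these were Nf2 in mSC replicate 4 (43.8 CPM, with the others at 78.5 to 81.5 CPM) and Tead3 in allSC replicate 4 (14.1 CPM, others 10.1 to 10.7 CPM). The Tead4 share of summed Tead RPKM was 8.49% in nmSC replicate 3, with the others at 6.46% to 6.76%.

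Of the other genes, mSC replicate 4 was low for Rassf5 (0.499 CPM, others 0.955 to 1.02 CPM) and Dag1 (1315 CPM, others 2427 to 2586 CPM). In nmSC replicate 3, Map4k1 was high (3.21 CPM, others 2.21 to 2.30 CPM) and Map4k3 was low (21.0 CPM, others 25.8 to 26.5 CPM). Map4k3 was low in allSC replicate 4 (16.2 CPM, others 20.2 to 20.6 CPM), Vgll3 was low in allSC replicate 1 (218 CPM, others 239 to 243 CPM), and F3 was high in nmSC replicate 1 (8.35 CPM, others 3.48 to 4.03 CPM).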

How the results depend on the processing

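The calls of Wwtr1, Tead2 and Tead4 between mSC and nmSC were made under all 20 alternatives run, with log2 fold changes from -1.24 to -0.58, -1.93 to -1.24 and 1.66 to 2.28, and that of Tead3 under 18, with values from 0.03 to 0.71. Tead3 was not called with library totals, with (0.03) or without (0.23) the 50 genes with the most counts. All alternatives for the genes outside the 10 were chosen after seeing the data. Scaling moved the calls most. With library totals alone, 11840 genes were called between mSC and nmSC (1448 higher and 10392 lower) and 2938 between nmSC and allSC, and of the 10 genes 8 and 4. The size factors of DESeq2 gave 4208 higher and 3288 lower between mSC and nmSC, and 2093 higher and 1478 lower between mSC and allSC. With library totals alone, 15 kinases and scaffolds and 4 Tead partners were called between mSC and nmSC. Without the 50 top genes these were 14 and 2, with 3 of the Schwann cell genes. Of all 18597 tested genes, 2059 were then called higher and 7658 lower in mSC. DESeq2's Wald test called 2 partners, and 4376 of all tested genes higher and 3552 lower in mSC.

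Some small differences changed sign. With library totals alone, mSC to nmSC values were -0.54 for Yap1, -0.37 for Tead1, -0.53 for Lats1, -0.35 for Nf2, -0.055 for Stk38l, -0.0066 for Strn3, -0.013 for Btrc, -0.21 for Scrib, -0.058 for Egr2 and -0.23 for Itga6. Against allSC, mSC values were -0.22 for Yap1, -0.0014 for Tead3, -0.21 for Lats1 and -0.17 for Nf2, and nmSC values 0.18 for Nf2 and 0.17 for Amotl2. Without the 50 top genes, they were -0.34 for Yap1, -0.16 for Tead1, -0.33 for Lats1, -0.15 for Nf2, -0.010 for Scrib and -0.029 for Itga6 between mSC and nmSC, -0.12 for Yap1, -0.12 for Lats1 and -0.075 for Nf2 between mSC and allSC, and 0.080 for Nf2 and 0.070 for Amotl2 between nmSC and allSC. With the size factors of DESeq2, Lats2 and Amotl2 were at 0.00065 and 0.063 between mSC and nmSC, and Lats2 at 0.022 between mSC and allSC, and with its Wald test at 0.0012, 0.063 and 0.022. Amotl2 between mSC and nmSC was 0.034 without a filter and 0.014 when only these gates were fitted, and Yap1 was -0.0015 with a filter of 1 CPM in 4 libraries. Between nmSC and allSC, 1 of the 10 genes was called without a filter. In that fit 437 of 25196 tested genes were called higher and 1359 lower in nmSC. Fitting only nmSC and allSC called 2899 genes.

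Leaving out each library in turn, the number called between nmSC and allSC was 1 to 3 of the 10 genes, and 1 to 2 Tead partners were called between mSC and nmSC. Of the 18918 to 19369 genes tested in these fits, 306 to 968 were called higher and 1022 to 1816 lower in nmSC against allSC. In mSC against nmSC, 3263 to 4042 were called higher and 2911 to 3949 lower in mSC. Differences between mSC and nmSC ranged from -0.065 to 0.11 for Yap1, -0.062 to 0.15 for Lats1, -0.11 to 0.065 for Lats2 and -0.16 to 0.18 for Amotl2. Between mSC and allSC they ranged from -0.00020 to 0.23 for Lats1, -0.079 to 0.11 for Lats2 and -0.23 to 0.12 for Amotl2, and between nmSC and allSC from -0.019 to 0.15 for Yap1, -0.025 to 0.13 for Lats1 and -0.016 to 0.053 for Lats2. The cause of these shifts was not tested.

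With the mouse as a block, 7170, 2900 and 1773 genes were called between mSC and nmSC, mSC and allSC, and nmSC and allSC, and of the 10 genes 4, 2 and 2. Beside Tead1, Scrib and Ankrd1, whose values are given above, the block changed no call of the 10 genes in any comparison or, between mSC and nmSC, of Ccn1, Ccn2, Axl and the named genes called in the pathway lists. It was not examined for the genes named after their values were seen. The Wwtr1 to Yap1 ratio in mSC, allSC and nmSC was 1.88, 2.40 and 2.99 with mean transcript lengths and 4.75, 6.07 and 7.57 with the longest transcripts. The Tead1 share was 66.2% in mSC, 58.5% in allSC and 59.2% in nmSC with mean transcript lengths. Depth limits Ccn2, Ankrd1, Map4k1, Rassf5, F3 and Fjx1, near or under 1 CPM in some libraries. Of 1.5-fold changes the test recovered 26.4% in simulated counts. Far fewer genes changed in those counts than were called in the data, so this share may not hold here.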

Other observations

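Outside the genes whose patterns were searched by rule, the transcripts that ran most like Tead4 over the 12 libraries were those of Nrip2 (Pearson r = 0.995), Ptpre (r = 0.994) and Fbxo25 (r = 0.993), among 9399 genes. These were looked at after their values were seen. Nrip2 lies near Tead4 on chromosome 6 (128399296 to 128416427, plus strand, GRCm38) and had means of 47.2 CPM in mSC, 26.9 CPM in allSC and 12.9 CPM in nmSC.

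For Tead3 the closest were Gm21983 (r = 0.938), Shld1 (r = 0.937) and Rassf7 (r = 0.934), of which Rassf7 had means of 24.0, 15.9 and 10.4 CPM in mSC, allSC and nmSC.

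Nf2, Lats2 and Amotl2 ran together over the libraries, with Pearson r of 0.793 for Lats2 and Nf2, 0.848 for Lats2 and Amotl2, and 0.838 for Nf2 and Amotl2 (12 libraries from 4 mice). Without the mSC library of mouse 4, which was low for all of them, these were 0.506, 0.420 and 0.634 (11 libraries). The relation thus rests in part on that library, and Lats2 counts are uncertain because of Gm49361.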
